A study of Drosophila melanogaster with 8 samples.

Results

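miR-1002-5p and miR-2535b-5p are a pair of rare microRNA (miRNA) arms in Drosophila S2 cells, listed in the deposited tables as mir-1002-5p and mir-2535b-5p. They are 2 of 262 mature arms in those tables, and 2 of the 100 arms with a mean of at least 10 reads per 1000000 small RNA reads (RPM) and reads in every library. They were chosen by their mean read length, which differed by more than 0.5 nt between libraries, so their lengths are described here without a test. A range of at least 0.5 nt was found in 12% of the 100 arms. The samples are small RNAs of S2 cells, a fly line of embryonic, blood-cell-like origin, size-selected to 18 to 30 nt. By the labels there are 4 genotypes with 2 replicates each, and nothing says that the replicates were separate cultures. These are nbrKO + nbrWT, a knockout of nbr given wild-type Nbr, nbrKO + nbrCM, the knockout given a catalytically inactive Nbr, nbrKO alone, and wild type. The titles mark both added forms as OE. The labels name neither the promoter of the added Nbr nor whether a line is a single clone. These groups ask how small RNA lengths depend on Nbr and on its catalytic activity.

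The 8 libraries in the tables carry numbers from 81154 to 81161, and 0 of the 8 numbers occurs in the labels. No library was therefore given a genotype, and each value below belongs to a numbered library, not to a genotype. Values are listed in the order of the library numbers, and libraries named together are not taken as replicates. The libraries held 17145872 to 32958242 small RNA reads, of which 34.7 to 44.3% were miRNA reads, and 1 read stood for 0.0303 to 0.0583 RPM. Errors and 95% intervals cover counting only and treat each read as independent. PCR copies are not independent molecules, so the intervals can be too narrow. Variation between replicates is not covered. The tables hold miRNAs alone, so the identity of the cells was not checked against other genes.

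A miRNA is cut out of a hairpin as a short duplex, and the strand kept by an Argonaute protein guides that protein to target RNAs through bases 2 to 8, the seed. The 5' end is fixed by the cut, while the 3' end can afterwards be shortened or extended. The nbr gene encodes Nibbler (Nbr), an enzyme that removes bases from the 3' end of certain Argonaute-bound fly miRNAs, of which miR-34 is the best known. In a mirtron the ends of the hairpin are set by splicing of a short intron rather than by the Drosha enzyme.

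The hairpins of the arms lie in different settings. The mir-1002 hairpin (FBgn0262272) is at 2L, 13747609 to 13747697, minus strand (BDGP6, the dm6 assembly), within an exon of lncRNA:CR45913. The same long noncoding RNA holds mir-968 (2L, 13747748 to 13747839), with 50 bases between the hairpins. The mir-2535b hairpin (FBgn0263559) is at X, 21298275 to 21298345, minus strand, and its 71 bases are exactly an intron of Abca3, a gene named as an ABC transporter. That intron is present in 3 of 3 annotated Abca3 transcripts, so the hairpin has the layout of a mirtron. Another intron of Abca3, of 65 bases, is exactly the hairpin of mir-1007 (X, 21296385 to 21296449), 1825 bases further along the same strand.

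The first 8 letters that the tables list for each arm are shown because they hold the seed, by which miRNAs are grouped into families. They are taken as bases 1 to 8, written as DNA, 5' to 3', with bases 2 to 8 in capitals.
mir-1002-5p (2L): tTAAGTAG
mir-968-5p (2L): tAAGTAGT
mir-2535b-5p (X): aCTCACGG
mir-1007-3p (X): tAAGCTCA
Bases 2 to 8 of miR-1002-5p are bases 1 to 7 of its neighbour miR-968-5p, so their seeds overlap with an offset of a single base. For each of these 4 arms, 0 other arms in the tables had the same bases 2 to 8. Reads of miR-1002-5p began at position 15 of the 89-base hairpin, and reads of miR-2535b-5p at position 46 of the 71-base hairpin. For these arms, for miR-1002-3p and for both arms of mir-968 and miR-1007-3p, the listed start was the first base of an annotated mature miRNA (6 of 6 arms). The tables call miR-2535b-5p a 5p arm, but its reads come from the 3' side of the annotated hairpin. No other arm of mir-2535b is listed.

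miR-1002-5p was a low-level arm that varied in abundance about as much as other miRNAs. Its level was 36.4 and 35.1 RPM in libraries 81154 and 81155, 34.1 and 35.1 RPM in 81156 and 81157, 40.2 and 36.05 RPM in 81158 and 81159, and 27.2 and 26.2 RPM in 81160 and 81161, from 450 to 1125 reads. Library 81158 was highest (95% interval 37.7 to 42.8 RPM), and 81160 and 81161 were lowest (25.0 to 29.4 and 23.9 to 28.8 RPM). The step from 81160 up to 81156 was 1.26-fold (1.14 to 1.39), and that from 81154 up to 81158 was 1.10-fold (1.01 to 1.21). The other steps in this order were within counting error. The highest library exceeded the lowest by 1.53-fold, against a median of 1.61-fold over the 100 arms. RPM is a share of the small RNA reads, so a lower level, fewer cells with the miRNA and more reads of other small RNAs cannot be told apart.

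Its reads differed in length between libraries mainly through a class of short reads. Reads of miR-1002-5p averaged 23.30 and 23.25 nt in libraries 81154 and 81155, 23.70 and 23.74 nt in 81156 and 81157, 23.12 and 23.14 nt in 81158 and 81159, and 23.76 and 23.74 nt in 81160 and 81161. Counting SEs were 0.0216 to 0.0520 nt. No library lay between 23.30 and 23.70 nt, a gap of 0.398 nt. Each other gap between libraries next to each other in the order of lengths was within its 95% counting error. The libraries were sorted by these same lengths, so this describes the values and is not a test. The range was 0.641 nt. The counting SE of the difference between the longest and shortest libraries was 0.0553 nt, which does not allow for their being picked as the extremes.

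The most common length was 24 nt in each library, which is also the length of the annotated mature miRNA. These reads made up 57.2 and 56.3% of the arm in libraries 81154 and 81155, 73.2 and 75.1% in 81156 and 81157, 61.5 and 62.1% in 81158 and 81159, and 79.3 and 77.3% in 81160 and 81161. The 24 nt reads spanned 1.33-fold in level, from 19.8 RPM in library 81155 to 26.4 RPM in 81157. The arm's total level was 35.1 RPM in both of these libraries. Their reads of 22 nt or shorter had 6.37 and 1.15 RPM. Reads of 22 nt or shorter spanned 10.1-fold, from 0.933 to 9.43 RPM, and their share ran from 3.28 to 23.5%. Between library 81160, with the longest mean, and 81158, with the shortest, 24 nt reads had 21.5 and 24.7 RPM, 21 nt reads 0.317 and 3.49 RPM, and 20 nt reads 0.181 and 3.03 RPM. Counting only reads of 23 nt or longer, a limit set after seeing the values, the mean length ranged by 0.115 nt (23.76 to 23.87 nt).

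**Figure D1:**
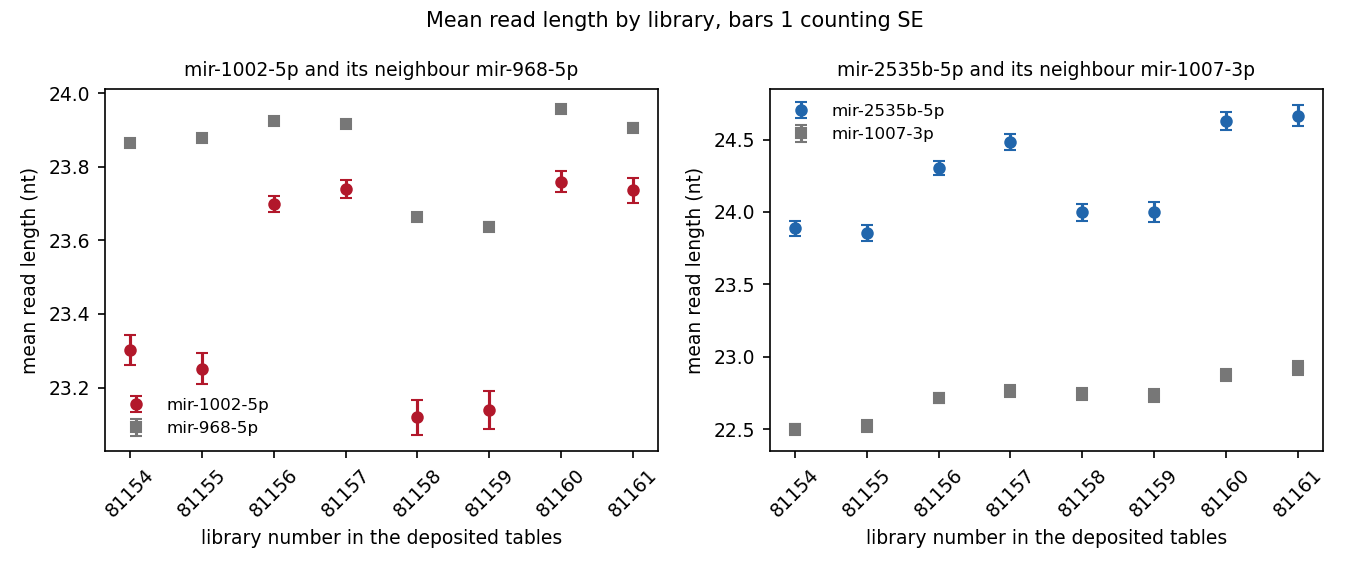
Mean read length (nt, vertical axis) in each library (horizontal axis) for miR-1002-5p with its neighbour miR-968-5p (left) and for miR-2535b-5p with its neighbour miR-1007-3p (right). Points are single libraries and bars are 1 counting SE. Both arms leave an empty interval, 23.30 to 23.70 nt for miR-1002-5p and 24 to 24.30 nt for miR-2535b-5p.

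The short reads were not of the same size in each library. In libraries 81154 and 81155 the class just below 24 nt was large, with 23.2 and 22.7% of reads at 23 nt and 8.51 and 6.93% at 22 nt. In libraries 81158 and 81159 fewer reads had 23 nt (13.1 and 13.98%), while reads of 21 nt reached 8.68% (95% Wilson interval 7.06 to 10.6%) and 10.7% (8.58 to 13.2%). Libraries 81154 and 81155 had 3.97% (2.87 to 5.47%) and 4.80% (3.60 to 6.36%) at 21 nt. The other 4 libraries had 0.444 to 1.17%. Reads longer than 24 nt were rare, at 0.865 to 2.88% of the arm.

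**Figure D2:**
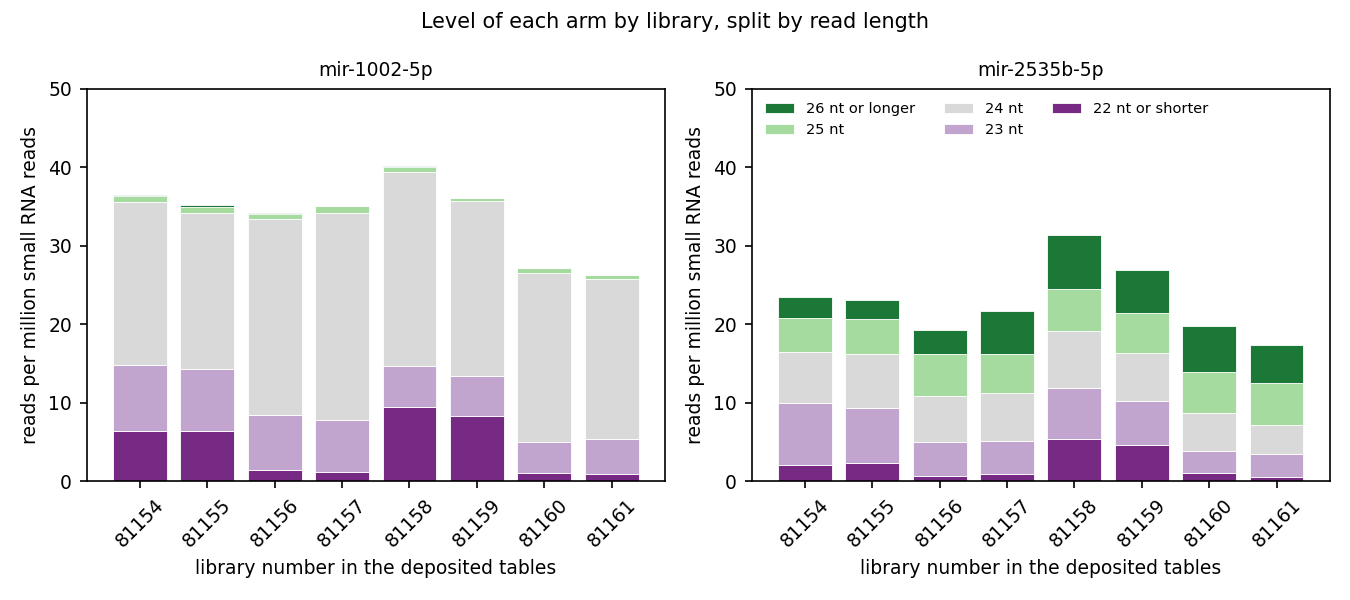
Level of miR-1002-5p (left) and miR-2535b-5p (right) in RPM (vertical axis) by library (horizontal axis), with bars stacked by read length. For miR-1002-5p the 24 nt part runs from 19.8 to 26.4 RPM and the part of 22 nt or shorter from 0.933 to 9.43 RPM.

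The neighbour miR-968-5p, from the same primary transcript, was more abundant and kept a near-constant ratio to miR-1002-5p. It had 165.6 to 253.6 RPM with a median of 233.5, and was highest in library 81158 and lowest in 81161, as miR-1002-5p was. There were 6.30 to 6.90 reads of miR-968-5p for each read of miR-1002-5p, a span of 1.09-fold, and the lowest ratio's interval (5.89 to 6.75, library 81158) overlapped the highest ratio's (6.42 to 7.42, library 81157). By the mean absolute difference of centred log2 RPM over the 8 libraries, miR-968-5p was the nearest to miR-1002-5p of 99 arms (0.0387, against a median of 0.231). miR-33-5p (0.0412) and miR-283-5p (0.0863) followed.

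In length the neighbours were less alike. miR-968-5p ranged by 0.320 nt, from 23.64 nt in library 81159 to 23.96 nt in 81160, and stood in place 23 of 99 by the same measure for mean length (0.183 nt, against a median of 0.230 nt). Its most common length was also 24 nt, with 71.5 to 85.9% of reads. Its reads of 22 nt or shorter made up 9.88 and 10.2% in libraries 81158 and 81159 and 1.63 to 3.38% in the other 6. In libraries 81154 and 81155, reads of 22 nt or shorter made up 17.4 and 18.1% of miR-1002-5p and 3.38 and 3.07% of miR-968-5p.

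The opposite arm miR-1002-3p, which the tables call the star strand, was rarer and ranged less in length. It had 2.81 to 4.86 RPM from 52 to 153 reads, or 7.17 to 12.2% of the reads of the hairpin's listed arms. Its most common length was 22 nt in each library, the annotated length, and its mean length was 21.77 to 21.97 nt. The range of 0.200 nt compares with counting SEs of 0.0205 to 0.0664 nt. The opposite arm of the neighbour, miR-968-3p, had 2.62 to 5.28 RPM and mean lengths of 21.52 to 21.83 nt.

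miR-2535b-5p was rarer and varied a little more in level. Its level was 23.5 and 23.1 RPM in libraries 81154 and 81155, 19.2 and 21.7 RPM in 81156 and 81157, 31.4 and 26.96 RPM in 81158 and 81159, and 19.8 and 17.3 RPM in 81160 and 81161, from 297 to 755 reads. Library 81158 (95% interval 29.2 to 33.7 RPM) and then 81159 (24.7 to 29.4 RPM) were highest, and each exceeded the library next below it beyond counting error, by 1.16-fold (1.04 to 1.30) and 1.15-fold (1.02 to 1.29). The other steps in this order were within counting error. The span was 1.81-fold. The share of miRNA reads was also highest in these libraries, at 44.3% in 81158 and 43.6% in 81159, and per 1000000 miRNA reads the span was 1.53-fold.

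Its reads had no single dominant length. The most common length was 23 nt in libraries 81154 and 81155 (33.7 and 30.4% of reads). It was 24 nt in 81156, 81157, 81158 and 81159 (30.4, 27.8, 23.3 and 22.9%), and 25 nt in 81160 and 81161 (26.4 and 30.98%). The annotated mature miRNA is 22 nt long, but reads of 22 nt made up 1.68 to 9.83% of the arm.

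Reads of miR-2535b-5p averaged 23.89 and 23.85 nt in libraries 81154 and 81155, 24.30 and 24.48 nt in 81156 and 81157, 23.999 and 24 nt in 81158 and 81159, and 24.63 and 24.66 nt in 81160 and 81161. Counting SEs were 0.0478 to 0.0719 nt. The gaps below and above library 81156 (0.301 and 0.180 nt) exceeded their 95% counting error, and the other gaps in the order of lengths did not. As for miR-1002-5p, this describes sorted values and is not a test. The range was 0.809 nt, and the counting SE of the difference between the extreme libraries was 0.0896 nt, again without allowance for picking them. Its median mean length of 24.15 nt was the second longest of the 100 arms, after that of miR-279-5p (24.40 nt).

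**Figure D3:**
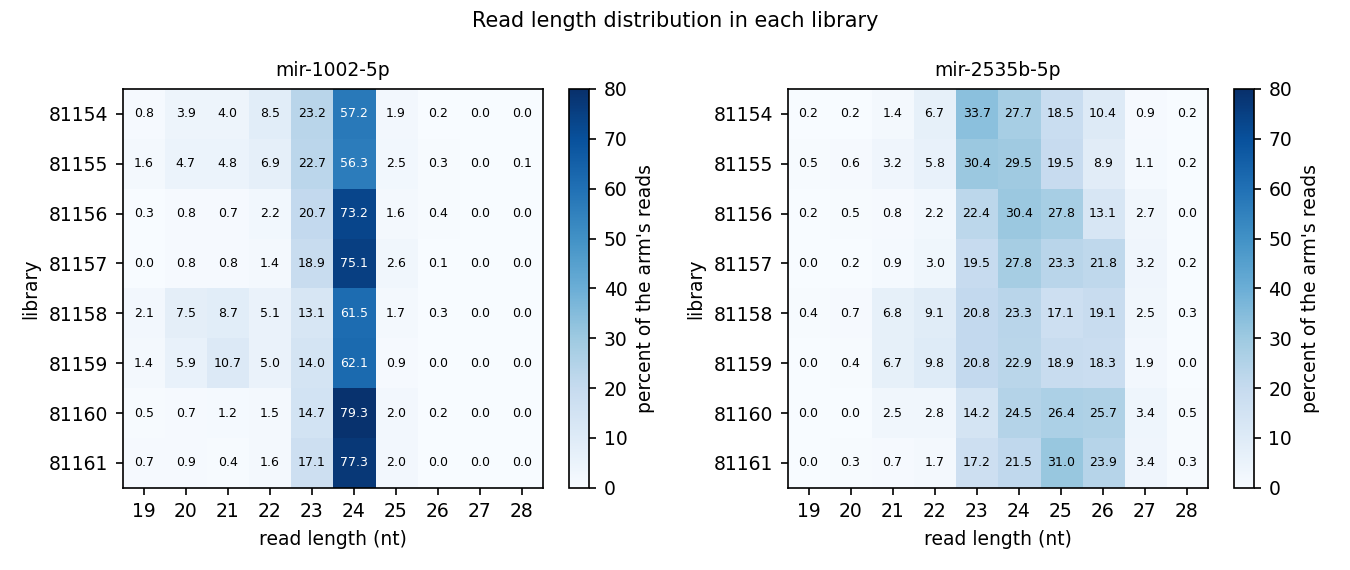
Read length distribution of miR-1002-5p (left) and miR-2535b-5p (right), with read length in nt on the horizontal axis, libraries on the vertical axis and the percent of the arm's reads as colour and number. miR-1002-5p peaks at 24 nt in each library, while the peak of miR-2535b-5p lies at 23, 24 or 25 nt depending on the library.

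In this arm the libraries differed in level at lengths on both sides of 25 nt, not in a short class alone. With reads of 23 nt or longer only, the mean length still ranged by 0.701 nt (24.10 to 24.80 nt). Reads of 25 nt had 4.34 to 5.37 RPM in the 8 libraries, a span of 1.24-fold. Reads of 26 nt spanned 2.90-fold (2.06 to 5.98 RPM), those of 23 nt 2.81-fold (2.81 to 7.90 RPM) and those of 22 nt or shorter 11.4-fold (0.467 to 5.32 RPM). Libraries 81158 and 81159 had the largest shares of reads of 22 nt or shorter, 17.0% in each. Their 26 nt shares, 19.1 and 18.3%, lay near the median of 18.7% over the 8 libraries. Libraries 81154 and 81155, with similar mean lengths, had the lowest 26 nt shares, 10.4 and 8.93%.

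The intron gives these lengths a fixed point. From position 46, a read of 26 nt ends on the last base of the Abca3 intron, and a read of 22 nt ends where the annotated mature miRNA ends. Reads of 26 nt made up 10.4 and 8.93% of the arm in libraries 81154 and 81155, 13.1 and 21.8% in 81156 and 81157, 19.1 and 18.3% in 81158 and 81159, and 25.7 and 23.9% in 81160 and 81161. Library 81155 was lowest (95% Wilson interval 6.92 to 11.4%) and 81160 highest (21.8 to 29.99%). Longer reads, which would pass the end of the intron, had 1.06 to 3.90%. The table gives lengths and no sequences, so bases of the genome and bases added after cutting cannot be told apart.

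**Figure D4:**
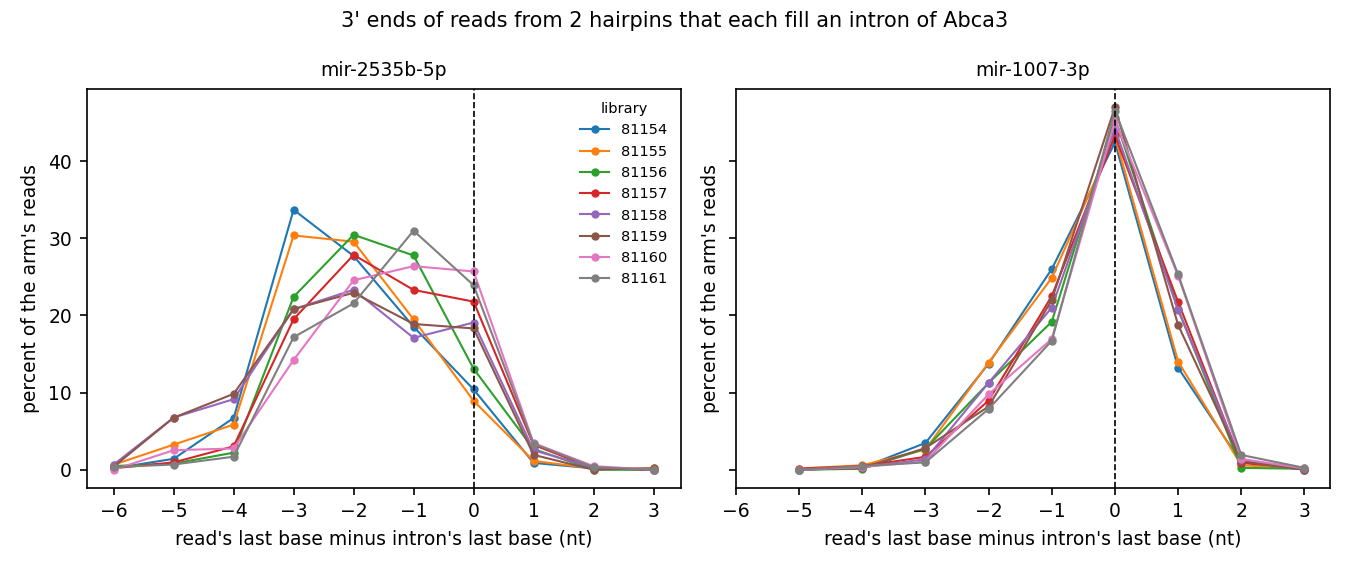
Percent of the arm's reads (vertical axis) by the distance in nt from the intron's last base to the read's last base (horizontal axis, 0 marked by a dashed line), with 1 line for each library, for miR-2535b-5p (left) and miR-1007-3p (right). At 0 lie 8.93 to 25.7% of miR-2535b-5p reads and 42.4 to 47.0% of miR-1007-3p reads.

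The other hairpin in an Abca3 intron gave an arm of similar level, miR-1007-3p, with 24.1 to 31.03 RPM. Its most common length was 23 nt in each library, which ends on the last base of its intron, with 42.4 to 47.0% of reads. Reads with a further base, at 24 nt, made up 13.2 to 25.3%. Its mean length was 22.50 to 22.93 nt, a range of 0.425 nt, and it was lowest in libraries 81154 and 81155 and highest in 81160 and 81161. Of 99 arms it stood in place 17 by likeness to the length profile of miR-2535b-5p (0.194 nt, against a median of 0.254 nt), and in place 44 by likeness in level.

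Besides miR-2535b-5p, 5 arms of at least 10 RPM come from the 3' side of a hairpin that is exactly an intron. Their ranges of mean length were 0.0640 to 0.425 nt, with a median of 0.345 nt, against 0.809 nt for miR-2535b-5p. In these arms, miR-1003-3p, miR-1008-3p, miR-1006-3p, miR-1012-3p and miR-1007-3p, the lowest share of reads ending on the intron's last base in any library was 40.7% and the highest 80.1%. Arms of such hairpins below 10 RPM, where few reads stand behind each mean, ranged from 0.166 to 2.625 nt. Among them mir-1013-5p (5.39 RPM) ranged by 1.68 nt, with 6.67 to 46.8% of reads ending on the intron's last base, and mir-1010-3p (1.41 RPM) by 1.25 nt, with 22.2 to 52.1%. By contrast mir-1009-5p (7.25 RPM) and mir-1005-5p (4.96 RPM) ranged by 0.166 and 0.195 nt. With no minimum on the level, 38.2% of all arms reached 0.5 nt, against 12% at 10 RPM or more. Whether the wide ranges below 10 RPM exceeded counting error was not tested. The set was taken from the annotation after earlier results were known, and no difference within it was tested.

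Set side by side, the arms had the same libraries at the long end. The 4 libraries with the highest mean length were 81156, 81157, 81160 and 81161 for miR-1002-5p and for miR-2535b-5p. The same 4 were highest for the Nbr substrate miR-34-5p, with 23.74, 23.82, 23.89 and 23.84 nt against 22.24 to 22.57 nt in the others. They were highest for 46 of the 100 arms, and for 11 of the 12 arms with a range of at least 0.5 nt. Among the other 4 libraries the lowest mean was in 81158 for miR-1002-5p and in 81155 for miR-2535b-5p. Libraries 81158 and 81159 had lower means than 81154 and 81155 for miR-1002-5p, but higher means for miR-2535b-5p. Gaps between neighbours in order there were within counting error for both arms. Libraries further apart in order were not compared, so whether the order differed was not tested.

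The length profile of miR-1002-5p was nearest to that of mir-2a-1-3p, of the miR-2 family, with a mean absolute difference of 0.0383 nt. miR-275-3p (0.0511 nt) and miR-7-5p (0.0632 nt) followed, and the median over 99 arms was 0.230 nt. For miR-2535b-5p the nearest were mir-2b-1-3p, of the same family (0.0845 nt), miR-275-3p (0.108 nt) and miR-283-5p (0.113 nt), with a median of 0.254 nt. In level, miR-2535b-5p was nearest to miR-12-3p (0.0757 on the log2 scale), miR-283-5p (0.0903) and mir-2a-1-3p (0.115), with a median of 0.264. The arms share libraries and depth, so these values describe likeness over 8 libraries only.

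A range of 0.5 nt or more was found in 12 of the 100 arms, or 12%, and both arms were chosen for it. The ranges of miR-2535b-5p and miR-1002-5p were in places 6 and 9. Of the arms taken as Nbr substrates, miR-34-5p (1.65 nt), miR-305-5p (1.34 nt) and miR-317-3p (1.196 nt) came first, while miR-263a-5p was in place 14. Just inside the limit lay miR-281-1-5p (0.549 nt) and miR-275-3p (0.514 nt), and just outside miR-2c-3p (0.498 nt) and miR-263a-5p (0.474 nt). By mean level the arms stood in places 85 (33.8 RPM, miR-1002-5p) and 89 (22.9 RPM, miR-2535b-5p) of 100. Of the 32 arms from 10 to under 100 RPM, 4 reached the limit, the other 2 being miR-279-5p and miR-281-1-5p.

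**Figure D5:**
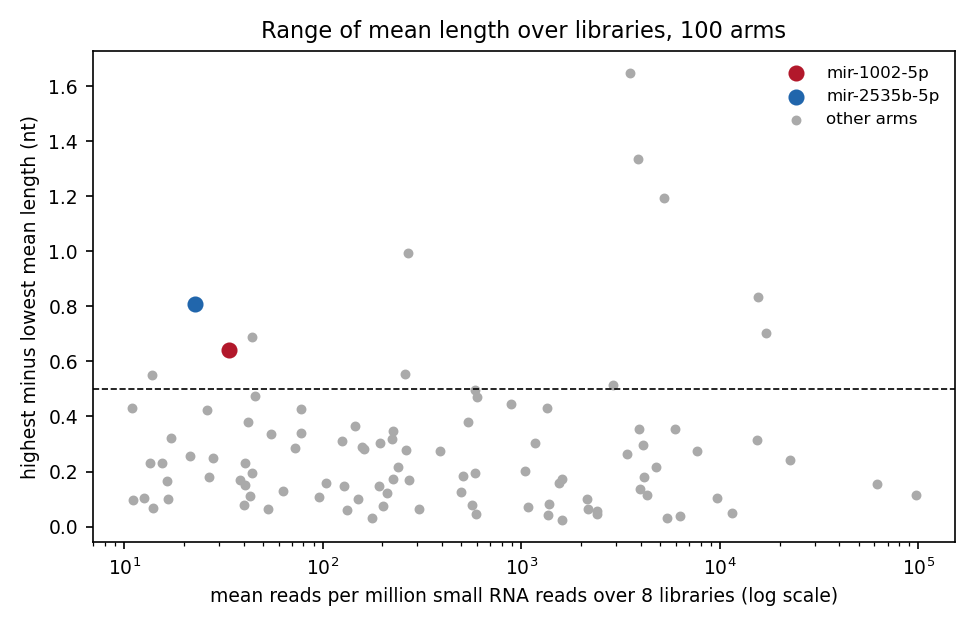
Highest minus lowest mean length over the 8 libraries (nt, vertical axis) against mean level (RPM, horizontal log axis) for the 100 arms of at least 10 RPM, with the limit of 0.5 nt dashed. miR-2535b-5p (0.809 nt at 22.9 RPM) and miR-1002-5p (0.641 nt at 33.8 RPM) lie above the limit among the rarer arms.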

How the data were processed

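Small RNA libraries of S2 cells were analysed from 3 deposited tables. Per the submitters' processing notes cutadapt 1.7.1, Bowtie 1.2.2, Picard and the build dm6 were used; further parameters were not stated there. Per the file headers, the authors' tables give a signal, which the recovered reads show to be RPM, for each arm, start position and, in 1 table, read length. Another deposited table holds other values, namely total small RNA and miRNA reads for each library. Value times total, divided by 1000000, was whole within 0.001 read for 100% of values, so reads were recovered. No count model was fitted, since no library could be tied to a genotype.

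From 289 lines, 1 line for each mature arm was kept at its main start, and for repeated loci the line with the most reads. Mean lengths are read-weighted, shares have 95% Wilson intervals and levels exact Poisson intervals. At 10 RPM a library holds 171 to 330 reads. Named arms are the members, the opposite arm, miRNAs within 10 kb on the same strand, the 3 nearest profiles, arms next to the 0.5 nt limit, and known Nbr substrates. Arms of other hairpins that fill an intron, and miR-279-5p, were named after their values were seen. Members, lists and rules were chosen with earlier results of these data known. The calculation of ranges was checked on simulated reads with a built-in shortening and counting noise only, which does not bear on variation between libraries. Positions are from the BDGP6 annotation of Ensembl. Python 3.11.15, numpy 2.4.6, pandas 2.3.3, scipy 1.17.1 and matplotlib 3.10.9 were used.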

Additional observations from a re-analysis of the deposited data

How the results depend on the processing

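No paired analysis was possible because the library numbers match no label, and the planned tests between genotypes were not run for the same reason. For miR-1002-5p the range of 0.641 nt became 0.234 nt with the median in place of the mean length and 0.115 nt with reads of 23 nt or longer, an alternative added after seeing the data, which removes the short reads by construction. For miR-2535b-5p the range of 0.809 nt became 1.00 nt with the median length, and the cause was not tested. Its span in level of 1.81-fold became 1.53-fold per 1000000 miRNA reads, and 1.56 to 1.81-fold with a library left out, the lowest without 81158. The share of arms at 0.5 nt or more was 38.2% of 262 arms with no minimum on the level, against 12% of 100. With a library's median shift over all arms taken off, the ranges were 0.590 nt (miR-1002-5p) and 0.684 nt (miR-2535b-5p). In all, 56 of the alternative values stayed within counting error, or within 1.5-fold for the share of arms, and 6 did not. A range or span cannot change when a library that is neither highest nor lowest is left out. Taking all start positions together also left each value the same. Many of the 56 therefore could not have moved, and the count is no measure of stability. Depth limits both arms, with 450 and 297 reads in library 81161.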

Other observations

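Reads of the class marked tc in the tables, read here as T-to-C mismatches, were at the floor of detection in both arms. miR-1002-5p had 8 such reads among 6508 over the 8 libraries (0.123%, 95% Wilson interval 0.0623 to 0.242%), with at most 3 in a library. miR-2535b-5p had 3 among 4352 (0.0689%, interval 0.0234 to 0.202%). The median over the 100 arms was 0.0905%. A count of 0 allows up to 3 reads, which is 0.0910 to 0.175 RPM, so no difference between libraries in this class was detectable at this depth.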
